A study of Mus musculus with 6 samples.

Results

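The genes described here build and police the mitotic spindle. They are the 20 genes in the table whose symbol is Cenp plus 1 letter, together with 30 genes chosen by name for kinetochore, checkpoint, spindle, cyclin and APC/C functions, which makes 50 of the 55367 genes listed. All 50 passed the filter on low values (a mean of at least 10 reads), and they stand among 12618 tested genes. The levels come from RNA sequencing of Lewis lung carcinoma (LLC) cells, a mouse tumour line labelled as wild type. The line was grown in serum-containing medium and exposed for 46 h either to the solvent DMSO or to 5 µM STM2457, a compound that blocks the m6A methyltransferase METTL3. Each arm has 3 libraries. No label states that the replicates were separate cultures, so the p-values below measure the spread between libraries, which may be technical.

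During mitosis each chromosome is held to spindle microtubules by a kinetochore, a layered protein machine built on centromeric chromatin that carries the histone variant CENP-A. A checkpoint made of BUB and MAD proteins keeps the anaphase-promoting complex (APC/C) and its activator CDC20 inactive until every kinetochore is attached. Cyclin B and securin are then destroyed, CDK1 switches off and the chromatids part. The transcripts of most of these proteins rise in G2 and mitosis under the FOXM1, MYBL2 and NF-Y transcription factors, so that in an unsynchronised culture their level also depends on how many cells are dividing. In bulk RNA, a different share of cells in mitosis and a different amount of transcript per cell cannot be told apart.

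The proximal promoters of 4 members that rose and 4 that fell, chosen with their values known, are printed here to set the 2 directions side by side. Each runs 5′ to 3′ from 150 bases before to 50 bases after the RefSeq start on GRCm38.p6. Capitals mark the cell cycle genes homology region, searched as TTTGAA or TTCGAA, and the CCAAT box, on either strand, so that TTCAAA and ATTGG are also in capitals. TTCGAA reads the same on both strands, and the motifs do not overlap in these windows. Among members that rose, the Plk1 window is chr7:122159285-122159484 on the plus strand, that of Aurka chr2:172370521-172370720 on the minus strand, that of Cdc20 chr4:118437294-118437493 on the minus strand and that of Birc5 chr11:117849087-117849286 on the plus strand.
Plk1: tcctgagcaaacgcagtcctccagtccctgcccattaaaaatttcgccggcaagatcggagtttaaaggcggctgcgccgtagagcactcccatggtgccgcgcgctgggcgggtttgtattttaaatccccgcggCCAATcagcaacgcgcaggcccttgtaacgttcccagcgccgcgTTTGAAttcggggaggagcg
Aurka: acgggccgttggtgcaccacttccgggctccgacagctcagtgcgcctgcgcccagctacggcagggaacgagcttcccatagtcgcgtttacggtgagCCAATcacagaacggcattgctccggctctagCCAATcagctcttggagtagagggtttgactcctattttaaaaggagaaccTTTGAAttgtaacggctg
Cdc20: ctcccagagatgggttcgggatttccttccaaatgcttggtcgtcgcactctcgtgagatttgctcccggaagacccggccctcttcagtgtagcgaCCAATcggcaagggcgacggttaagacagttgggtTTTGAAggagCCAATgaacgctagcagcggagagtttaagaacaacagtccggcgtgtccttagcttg
Birc5: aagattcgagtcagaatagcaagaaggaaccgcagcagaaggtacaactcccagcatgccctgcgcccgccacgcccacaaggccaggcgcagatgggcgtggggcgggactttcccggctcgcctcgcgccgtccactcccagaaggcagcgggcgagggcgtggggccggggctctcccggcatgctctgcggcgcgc

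Among members that fell, the Ccnb2 window is chr9:70421505-70421704 on the minus strand, that of Top2a chr11:99024140-99024339 on the minus strand, that of Pttg1 chr11:43425932-43426131 on the minus strand and that of Ndc80 chr17:71526808-71527007 on the minus strand.
Ccnb2: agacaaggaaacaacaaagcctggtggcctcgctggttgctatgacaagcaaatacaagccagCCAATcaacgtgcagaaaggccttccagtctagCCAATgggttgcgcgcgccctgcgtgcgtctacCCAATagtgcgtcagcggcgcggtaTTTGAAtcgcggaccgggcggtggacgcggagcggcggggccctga
Top2a: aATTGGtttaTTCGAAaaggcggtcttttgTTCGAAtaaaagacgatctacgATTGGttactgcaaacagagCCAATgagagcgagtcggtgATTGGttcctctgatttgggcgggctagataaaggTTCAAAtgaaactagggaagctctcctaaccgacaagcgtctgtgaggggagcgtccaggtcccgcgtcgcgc
Pttg1: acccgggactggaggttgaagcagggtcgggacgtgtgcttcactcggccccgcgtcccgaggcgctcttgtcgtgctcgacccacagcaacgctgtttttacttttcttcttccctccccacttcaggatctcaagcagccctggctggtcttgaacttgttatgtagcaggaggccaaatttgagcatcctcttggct
Ndc80: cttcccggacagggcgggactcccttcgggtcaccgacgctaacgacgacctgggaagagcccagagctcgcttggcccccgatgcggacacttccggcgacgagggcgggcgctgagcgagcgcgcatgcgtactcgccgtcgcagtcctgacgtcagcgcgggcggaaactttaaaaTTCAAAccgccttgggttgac

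The homology region lay 31 bases into the Plk1 transcript, 33 into that of Aurka and 5 into that of Ccnb2, counted with the start as position 1, and 18 bases before the start of Cdc20. The windows of Birc5 and Pttg1 held neither motif. That of Pttg1 lies wholly inside the annotated gene (chr11:43420250-43426251, minus strand). It is therefore not the sequence before the outermost annotated start, and the lack of motifs does not describe that sequence. The Top2a window held 4 CCAAT boxes and 3 homology regions. Both motifs stood in promoters of genes that rose (Plk1, Aurka, Cdc20) and of genes that fell (Ccnb2, Top2a).

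RefSeq promoters were at hand for 43 of the 50 members. These made 47 promoters, and in 39 of them the last 30 bases lay in an annotated transcript of the gene. In windows from 250 bases before to 50 after the start, 24 of the 43 (55.8%) held a homology region, against 16.2% of 9384 tested genes with a promoter and 21.7% of all 27025 genes with one. A CCAAT box stood in 30 (69.8%) of the members and in 43.8% of tested genes, and both motifs together in 22 (51.2%) and in 6.99%. The E2F sequences TTTCGCGC and TTTGGCGC, on either strand, were in 2 members (4.65%) and in 1.9% of tested genes. Of the members that rose after STM2457, 5 of 12 held a homology region, of those that fell 6 of 9 and of those not called 13 of 22. Within 50 bases of the start the counts were 3 of 12, 6 of 9 and 11 of 22. The groups are small, and a difference between them was not tested. Kif20a, Foxm1 and Incenp, which rose, were among the members without a promoter. A match is a stretch of letters and was not tested as a binding site.

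After STM2457 the 50 genes did not move as a block. By limma on the deposited log2 values, 15 rose, 9 fell and 26 did not pass an adjusted p of 0.05. Over all tested genes, 56.3% were called, 30.7% higher and 25.7% lower. Beside these shares, not matched for read number, 15 of 50 (30%) higher is close to the background and 9 of 50 (18%) lower is below it. The median member stood at 1.02 of its DMSO level, and the median of all tested genes at 1.01. The changes were small: folds ran from 0.811 for Top2a to 1.43 for Plk1, and 86% of members lay within 0.32 of DMSO on the log2 scale, compared with 67.2% of all tested genes. Those 2 shares were not matched for read number, and the members are the better covered set. With a log2 fold of at least 0.32 in size required besides the adjusted p, 7 members were higher (14%, background 14.1%) and 0 lower (background 14.3%, and 28.4% in either direction). Those 7 were Plk1, Aurka, Kif20a, Cdc20, Cenps, Cenpv and Cenpl. Among the 8660 tested genes with a mean read number in the range of the members, 15.2% were higher and 8.65% lower by this rule. Both counts depend on the scaling: upper-quartile centring gave 3 higher and 2 lower with a median fold of 0.976, and median centring 3 and 1 with a median fold of 0.981. Without DMSO replicate 2, 1 member was lower by that factor, and likewise 1 without STM2457 replicate 3. The share of all tested genes passing this rule in those settings is not given here, so these counts have no background beside them. Of the 20 Cenp genes 5 rose and 2 fell, and of the 30 chosen by name 10 rose and 7 fell. In that same range of reads, 38.5% of tested genes were called higher and 23.8% lower at the adjusted p alone. Beside those shares, both the 30% of members higher and the 18% lower are below the background. The counts by role and list below stand beside the shares over all tested genes, which are not matched for read number. Folds are ratios of STM2457 to DMSO fitted by limma-voom on reads recovered from the deposited values, and levels are recovered reads divided by a size factor, called normalised reads.

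**Figure D1:**
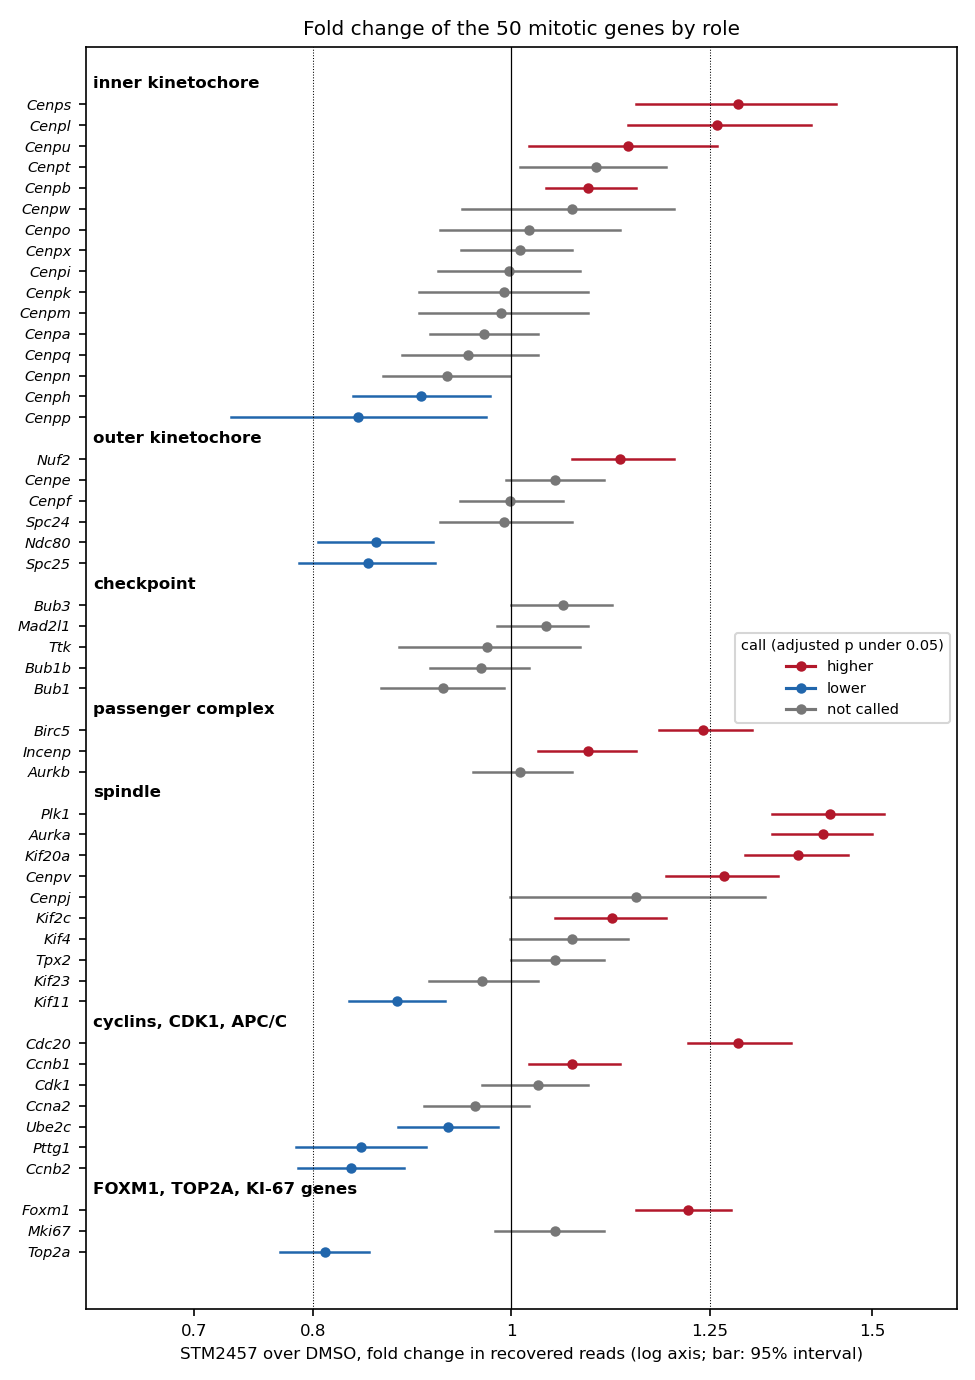
Fold change of each of the 50 members in recovered reads (horizontal log axis, 1 marks no change, dotted lines at a log2 fold of 0.32 in either direction) by role, with bars for the 95% interval of the fit and colours for the limma call. Plk1, Aurka and Kif20a lie farthest to the right, Top2a lies farthest to the left, and all 5 checkpoint genes are grey.

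**Figure D2:**
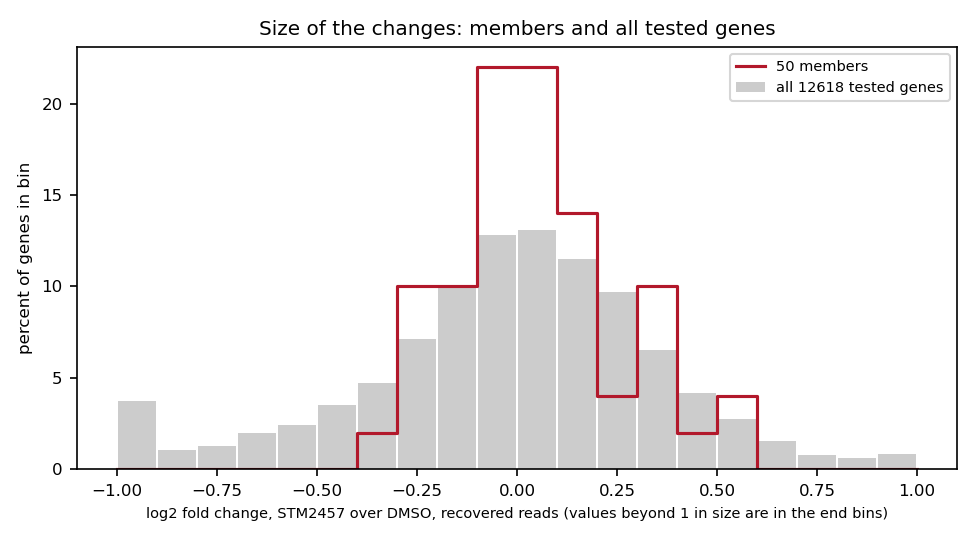
Share of genes (vertical axis, percent) in bins of log2 fold change (horizontal axis) for all 12618 tested genes (grey bars) and the 50 members (red line). The members fill the middle bins and reach neither tail, in sets not matched for read number.

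How many members count as lower depends on the scaling between libraries. Centring each library on its upper quartile gave 10 higher and 16 lower, and centring on its median 11 and 16. For all tested genes the upper-quartile setting turned 3868 higher and 3240 lower (54.4% of calls higher) into 2819 and 4814 (36.9%), and the median setting into 2941 and 4621 (38.9%). Of the 15 rises, 10 held in each of 12 other fits of the deposited values, and of the 9 falls 6 did. The 10 were Plk1, Aurka, Kif20a, Cdc20, Cenps, Cenpl, Cenpv, Birc5, Foxm1 and Nuf2, and the 6 were Top2a, Ccnb2, Pttg1, Spc25, Ndc80 and Kif11.

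The libraries were close in total. Recovered reads in genes summed to 17671715 to 17679488 in DMSO and 17877627 to 17917202 after STM2457. Each STM2457 sum lay above each DMSO sum. All 50 members together took 0.639% to 0.662% of the reads in DMSO and 0.654% to 0.666% after STM2457, so the groups overlapped. The library DMSO replicate 1 ran high for 34 of the 50 members against the mean of the other DMSO libraries, by a median log2 difference of 0.04 over members. The gene of the targeted enzyme, Mettl3, measured 469, 601 and 540 normalised reads in DMSO and 499, 451 and 513 after STM2457 (adjusted p = 0.15), which overlap; an inhibitor of the enzyme's activity need not change its transcript. Among markers of the labelled lung tumour, the epithelial genes Epcam and Cdh1 and the lung gene Nkx2-1 were at 0 reads in every library, and 0 of 5 epithelial genes reached a mean of 10 reads. Of the 5 lung alveolar markers Hopx alone reached that mean, with 138 to 146 normalised reads in DMSO and 136 to 162 after STM2457. The mesenchymal markers Vim (51753 to 54322 normalised reads in DMSO) and Col3a1 (24918 to 26483) were high, and the 6 mesenchymal markers summed to 78242 to 79555 in DMSO and to 65154 to 66356 after STM2457, a sum made mostly of those 2 genes. Pdgfrb lay between 59.1 and 70.5 in DMSO and between 146 and 188 after STM2457, the other way from the sum. Pdgfra lay between 97.4 and 133 and then between 99.3 and 128, Col1a2 between 126 and 148 and then between 60.4 and 66.6, and Col1a1 between 11 and 21.1 and then between 7.93 and 15.9. The part of these markers in the results was not tested. The 6 leukocyte markers summed to at most 10.9 normalised reads in DMSO and 11.9 after STM2457, and the 4 endothelial markers to at most 5.02 and 8.94.

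Levels of the members differed widely. Per kilobase of annotated exon, Ube2c had the highest level in DMSO, with 1980 ± 61.3 reads per kilobase (SD, n = 3), followed by Ccnb2 with 1848 ± 66.2, Top2a with 1403 ± 35.2 and Cenpx with 1242 ± 53.8. The lowest was Cenpj with 37.1 ± 2.57. The length takes all annotated exons of a gene together, so this ranking depends on which transcripts are annotated. The median member had 394 reads per kilobase and the median tested gene in the annotation 114, so most of these calls rest on well-covered genes. Neighbours such as Tpx2 (1067) and Mki67 (1088) did not differ beyond their spread, since the SDs were 24.9 for Tpx2 and 66.4 for Mki67.

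The inner kinetochore binds CENP-A chromatin and stays at the centromere through the cell cycle. Of its 16 members 4 rose (25%, background 30.7%), 2 fell (12.5%, background 25.7%) and 10 did not pass, with a median fold of 1. Cenps encodes a histone-fold protein of the CENP-T-W-S-X complex and measured 270, 258 and 269 normalised reads in DMSO and 373, 321 and 335 after STM2457. All 3 treated libraries lay above all 3 controls (fold 1.29, 95% interval 1.15 to 1.44, adjusted p = 2.6e-04). Cenpl, whose product pairs with CENP-N on CENP-A nucleosomes, measured 285, 302 and 284 in DMSO and 374, 347 and 381 after STM2457. Again the groups did not overlap (fold 1.26, interval 1.14 to 1.4, adjusted p = 3.0e-04). Such separation was found in 61.8% of all tested genes, in 67.6% of the 8660 in the members' range of reads and in 25 of the 50 members. Cenpb, which binds a short motif in centromeric satellite DNA, measured 5060, 4921 and 4848 in DMSO and 5200, 5495 and 5527 after STM2457. That rise was small and free of overlap (fold 1.09, adjusted p = 0.0052), and it was lost with upper-quartile centring (adjusted p = 0.12) and median centring (0.092).

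Cenpx, the member of this group with the highest level per kilobase and the partner of CENP-S, measured 1283, 1331 and 1398 in DMSO and 1351, 1342 and 1344 after STM2457, which overlap (fold 1.01, interval 0.945 to 1.07, adjusted p = 0.87). Cenpa, the gene of the centromeric histone itself, had a fold of 0.97 (interval 0.913 to 1.03, adjusted p = 0.39), with a call as lower under upper-quartile (0.022) and median (0.044) centring only. Cenpu (fold 1.14, adjusted p = 0.032) rose, but did not pass once DMSO replicate 3 (0.13), STM2457 replicate 1 (0.16) or STM2457 replicate 2 (0.071) was left out, under both centrings (0.23 and 0.17) and without the filter on low values (0.051). Primpol, on the other strand of Cenpu with overlapping exons, stood at 0.534 of its DMSO level. The falls of Cenph (0.904, adjusted p = 0.024) and Cenpp (0.842, adjusted p = 0.035) were no firmer. That of Cenph did not pass once DMSO replicate 1 (0.1), STM2457 replicate 1 (0.06) or STM2457 replicate 2 (0.086) was left out and without the filter (0.051). That of Cenpp needed DMSO replicates 2 (0.061 without it) and 3 (0.13) and STM2457 replicates 1 (0.23) and 2 (0.076). Cenpt (1.1, adjusted p = 0.056) passed as higher without DMSO replicate 2 (0.0057), and Cenpn (0.93, adjusted p = 0.077) as lower without DMSO replicate 1 (0.018) and under both centrings. Cenpq (0.952) was called lower under both centrings only. Cenpi, Cenpk, Cenpm, Cenpo and Cenpw had folds from 0.989 to 1.07 and were called in none of the fits of the deposited values. The symbol Cenpc1, for the CENP-C scaffold, falls outside the naming pattern; it was lower in each fit (fold 0.882, adjusted p = 0.0025).

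The outer kinetochore grips microtubules through the 4-subunit NDC80 complex, in which NDC80 pairs with NUF2 and SPC24 with SPC25. Its genes went different ways. Ndc80 fell, with 1296, 1403 and 1316 normalised reads in DMSO and 1163, 1137 and 1145 after STM2457 (fold 0.859, interval 0.805 to 0.916, adjusted p = 2.1e-04). Nuf2 rose, with 1712, 1661 and 1676 in DMSO and 1878, 1891 and 1951 after STM2457 (fold 1.13, interval 1.07 to 1.2, adjusted p = 5.2e-04). Both separations were complete, in opposite directions. Spc25 fell from 761, 751 and 804 to 678, 631 and 660 (fold 0.851, interval 0.788 to 0.918, adjusted p = 6.9e-04), also without overlap. Spc24 measured 778, 790 and 780 in DMSO and 775, 809 and 747 after STM2457, which overlap (fold 0.992, interval 0.923 to 1.07, adjusted p = 0.87). The corona genes Cenpe, a motor that carries chromosomes to the spindle equator, and Cenpf, a large coiled-coil protein, had folds of 1.05 (adjusted p = 0.13) and 0.999 (0.97).

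None of the 5 checkpoint genes was called, beside 56.3% of all tested genes. Bub1b encodes BUBR1, which inhibits CDC20, and measured 3548, 3235 and 3361 normalised reads in DMSO and 3200, 3251 and 3349 after STM2457 (fold 0.967, interval 0.913 to 1.02, adjusted p = 0.31). Bub1, the kinase that recruits checkpoint proteins to kinetochores, measured 3638, 3100 and 3557 in DMSO and 3158, 3138 and 3212 after STM2457. DMSO replicate 2 lay below all treated libraries, and the others of its group lay above them. The fold was 0.926 (interval 0.864 to 0.992, adjusted p = 0.054), and Bub1 was called lower without that library (adjusted p = 1.3e-04), with the replicate number as a block (0.034), without the filter on low values (0.03) and with upper-quartile (0.0018) or median (0.0059) centring. Bub3, the adaptor of both BUB kinases, measured 2858, 2759 and 2764 in DMSO and 2980, 2987 and 2910 after STM2457. These do not overlap, yet the fold of 1.06 had an interval from 1 to 1.12 (adjusted p = 0.064, and 0.031 without DMSO replicate 1). Mad2l1, for the MAD2 protein that captures CDC20, measured 2962, 2891 and 2883 in DMSO and 3067, 3067 and 2932 after STM2457 (fold 1.04, interval 0.984 to 1.09, adjusted p = 0.24). Ttk, the kinase that starts the signal, had a fold of 0.973 (interval 0.881 to 1.08, adjusted p = 0.65). For Bub1b a call as lower came with upper-quartile (0.012) and median (0.027) centring. At an unadjusted p under 0.05, 2 of the 5 (Bub1 and Bub3) passed by limma, and by limma-voom 0 passed at the adjusted threshold.

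The chromosomal passenger complex corrects faulty attachments and holds the kinase Aurora B, its activator INCENP and survivin. Birc5, the survivin gene, rose from 3258, 3062 and 3175 normalised reads to 3955, 3831 and 3990 (fold 1.24, interval 1.18 to 1.31, adjusted p = 2.0e-07). All treated libraries were above all controls. Incenp rose from 3279, 3409 and 3359 to 3625, 3595 and 3708 (fold 1.09, interval 1.03 to 1.15, adjusted p = 0.0073), a call that upper-quartile (0.18) and median (0.13) centring removed. Aurkb measured 2929, 2780 and 2950 in DMSO and 2942, 2926 and 2883 after STM2457, with the groups overlapping (fold 1.01, interval 0.958 to 1.07, adjusted p = 0.75).

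The members with the largest rises were spindle kinases and motors. Of 10 genes in that group 5 rose, 4 of them by at least 0.32 on the log2 scale, and 1 fell. Over all tested genes 30.7% rose, 14.1% by at least that size, and 25.7% fell. Plk1, the kinase that drives spindle assembly and cytokinesis, rose from 2332, 2109 and 2330 normalised reads to 3197, 3353 and 3100 (fold 1.43, interval 1.34 to 1.52, adjusted p = 6.5e-10). Aurka, the Aurora kinase of the spindle poles, rose from 2023, 1969 and 2003 to 2841, 2828 and 2836 (fold 1.42, interval 1.34 to 1.5, adjusted p = 6.3e-11). The spread within each Aurka group was far smaller than the gap between them. Kif20a, a kinesin of the central spindle, rose from 1570, 1544 and 1475 to 2071, 2165 and 2091 (fold 1.38, interval 1.3 to 1.46, adjusted p = 1.3e-09), while Cdc23, on the other strand with overlapping exons, had a fold of 1 (adjusted p = 0.92). Gm44985, on the other strand of Plk1, had under 10 reads in the mean of either group. Tpx2, the protein that activates Aurora A and the member of this group with the highest level per kilobase, measured 5032, 4860 and 5082 in DMSO and 5230, 5309 and 5221 after STM2457. These values do not overlap, but the fold of 1.05 (interval 1 to 1.11) did not pass (adjusted p = 0.085).

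Cenpv, whose product bundles microtubules, rose 1.27-fold (interval 1.19 to 1.35, adjusted p = 5.8e-07). Kif2c, a kinesin that depolymerises microtubules at centromeres, rose 1.12-fold (adjusted p = 0.0019, but 0.056 with upper-quartile centring). Kif11, the motor that pushes the spindle poles apart, fell to 0.879 (interval 0.833 to 0.928, adjusted p = 2.2e-04) in each fit. Kif23 (0.968, adjusted p = 0.35), Kif4 (1.07, adjusted p = 0.09) and the centriole gene Cenpj (1.15, interval 0.999 to 1.33, adjusted p = 0.075) did not pass. Kif4 passed as higher without DMSO replicate 1 (0.022), Cenpj without DMSO replicate 1 (0.043) or STM2457 replicate 2 (0.029), and Kif23 as lower under upper-quartile (0.023) and median (0.037) centring.

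**Figure D3:**
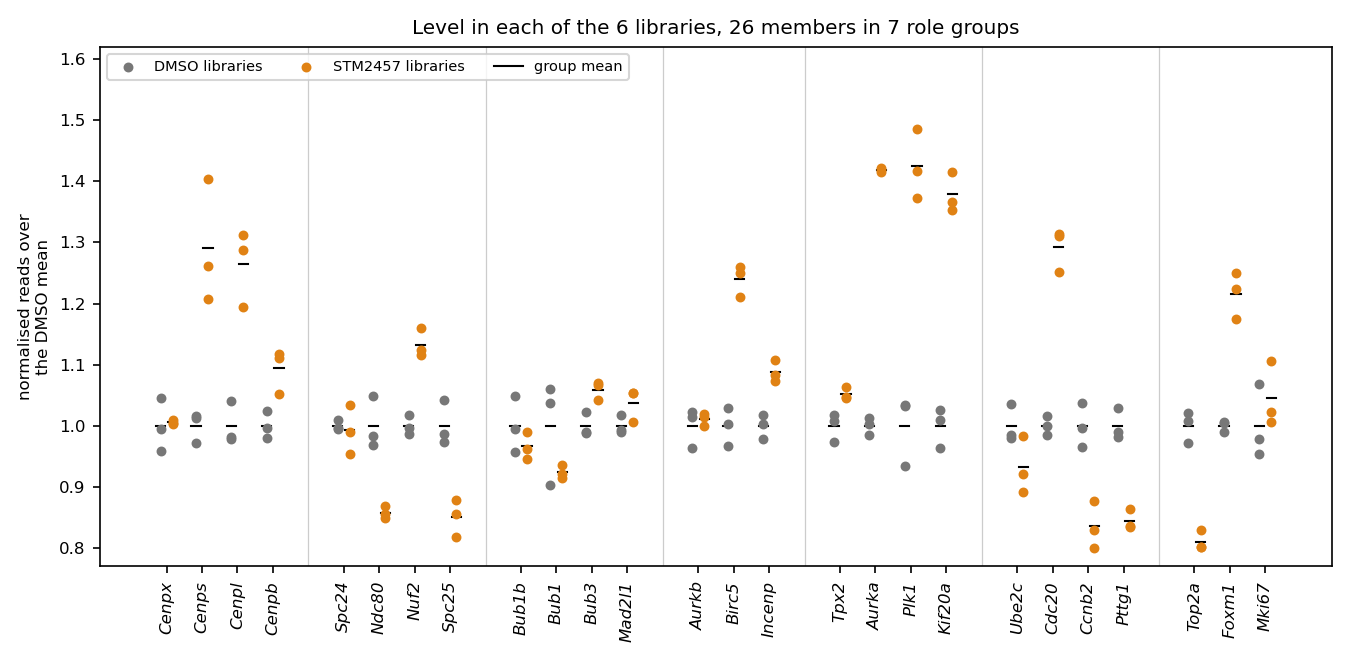
Normalised reads in each library over the gene's DMSO mean (vertical axis) for 26 members, ordered by role from the inner kinetochore at the left to Mki67 at the right, with grey points for DMSO, orange points for STM2457 and bars for group means. The orange points of Aurka, Plk1 and Kif20a sit above every grey point, and those of Ndc80, Spc25, Ccnb2, Pttg1 and Top2a below every grey point of the same gene.

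Cyclins A and B switch on CDK1, and the APC/C with CDC20 and the ubiquitin-conjugating enzyme UBE2C ends mitosis by destroying cyclin B and securin. In this group of 7, 2 genes rose and 3 fell, beside 30.7% and 25.7% of all tested genes. Cdc20 rose from 1790, 1734 and 1759 normalised reads to 2315, 2309 and 2205 (fold 1.29, interval 1.22 to 1.37, adjusted p = 3.0e-08). Its exons overlap those of Elovl1 on the other strand, which rose 1.27-fold (adjusted p = 1.8e-07), and what reads of one could add to the other was not tested. Ccnb2, for cyclin B2, fell from 2733, 2820 and 2935 to 2262, 2483 and 2348 (fold 0.835, interval 0.787 to 0.886, adjusted p = 1.1e-05). Pttg1, for securin, fell from 784, 822 and 791 to 690, 668 and 667 (fold 0.845, interval 0.785 to 0.909, adjusted p = 3.0e-04). Both were separated completely. Ube2c measured 5070, 5044 and 5332 in DMSO and 4742, 5061 and 4590 after STM2457, with STM2457 replicate 2 inside the DMSO range (fold 0.931, adjusted p = 0.033). It no longer passed once DMSO replicate 3 (0.17), STM2457 replicate 1 (0.11) or STM2457 replicate 3 (0.2) was left out, nor with plain eBayes (0.085). Ccnb1, for cyclin B1, stood at 1.07 (interval 1.02 to 1.13, adjusted p = 0.025), and its call as higher ended when DMSO replicate 3 (0.06), STM2457 replicate 1 (0.085) or STM2457 replicate 2 (0.14) was left out, with plain eBayes (0.058) and under upper-quartile (0.37) and median (0.29) centring. Cdk1 itself had a fold of 1.03 (interval 0.968 to 1.09, adjusted p = 0.47). Ccna2, for cyclin A2, had 0.96 (interval 0.907 to 1.02, adjusted p = 0.21) and was called lower without DMSO replicate 2 (0.037) and under upper-quartile (0.0067) and median (0.017) centring. Processed copies of the cyclin B genes took few reads, at most 3 in a library for Ccnb1-ps and 24 for Ccnb2-ps.

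Foxm1 encodes the transcription factor that drives many genes of this set, Top2a the topoisomerase that untangles chromatids, and Mki67 the proliferation marker Ki-67. Foxm1 rose from 2704, 2745 and 2749 normalised reads to 3210, 3344 and 3414 (fold 1.22, interval 1.15 to 1.28, adjusted p = 9.2e-07). Top2a fell from 12908, 12293 and 12735 to 10142, 10126 and 10478 (fold 0.811, interval 0.771 to 0.852, adjusted p = 1.4e-07), the lowest fold among the members. Mki67 measured 11702, 10435 and 10702 in DMSO and 11010, 11198 and 12106 after STM2457. Its groups overlap, and the fold of 1.05 (interval 0.982 to 1.11) did not pass (adjusted p = 0.23, and 0.021 without DMSO replicate 1).

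Because scaling between libraries moves each fold, the ratio of partner genes was also taken within each library, where scaling cancels. The 12 pairs are subunits of 1 complex, paralogs or a kinase and its activator, and they were chosen with the members' values known, so no test is given. The ratio of Aurka to Aurkb, per kilobase, was 0.804, 0.824 and 0.79 in DMSO and 1.12, 1.13 and 1.14 after STM2457. That of Aurka to Tpx2 moved from 0.74 ± 0.0105 to 0.997 ± 0.0111 (SD, n = 3). Ndc80 to Nuf2 moved from 0.777 ± 0.0436 to 0.588 ± 0.0157, and Spc25 to Spc24 from 0.796 ± 0.0333 to 0.683 ± 0.0464 (SD, n = 3). In each of these 4 pairs the groups did not overlap.

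Cyclin B1 to cyclin B2 transcript went from 0.426 ± 0.0201 to 0.548 ± 0.0247, Cenps to Cenpx from 0.112 ± 0.00573 to 0.144 ± 0.0109, and Cenpl to Cenpn from 0.16 ± 0.00634 to 0.218 ± 0.0127 (SD, n = 3). Cenph to Cenpk fell to 0.911 of its DMSO ratio, Cenpq to Cenpu to 0.838, and Cenpo to Cenpp stood at 1.22. The ratios of Cenpt to Cenpw (1.03 of its DMSO value) and Bub1 to Bub1b (0.958) overlapped between groups. In the other 10 pairs the groups did not overlap, which is a description of chosen pairs, 2 of which share Aurka. Single genes separated without overlap in 61.8% of all tested genes, and the share over all gene pairs was not computed.

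**Figure D4:**
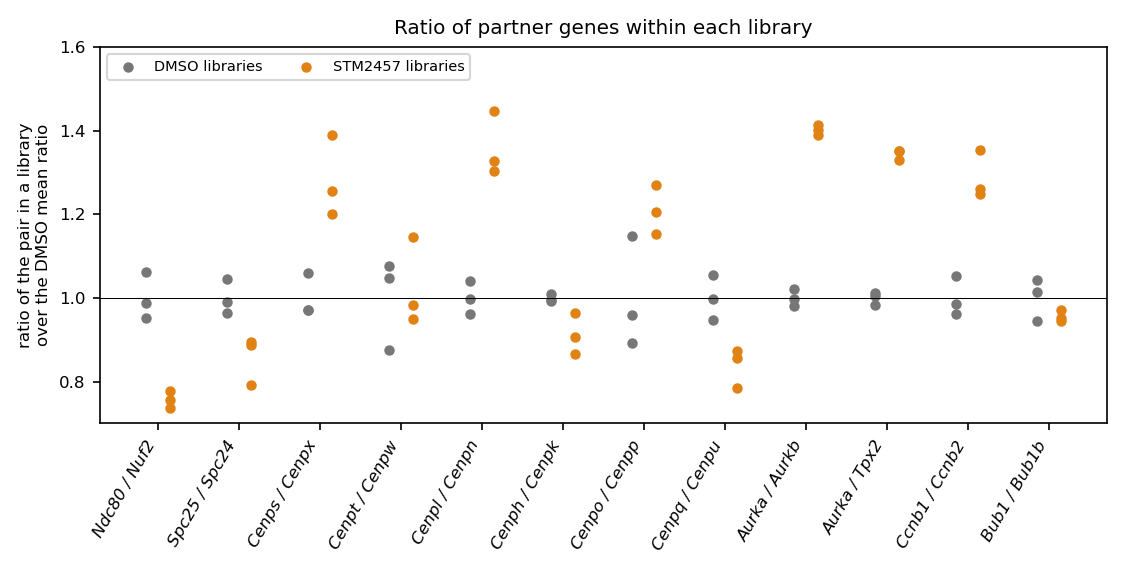
Ratio of 2 partner genes in each library over the mean DMSO ratio (vertical axis) for 12 pairs, grey for DMSO and orange for STM2457. Aurka over Aurkb and Aurka over Tpx2 rise with little spread, Ndc80 over Nuf2 falls, and Cenpt over Cenpw and Bub1 over Bub1b overlap.

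Other genes of mitosis and the cell cycle, 133 in 8 lists, gave 46 rises (34.6%) and 30 falls (22.6%), close to the background of 30.7% and 25.7%. Condensin, which compacts mitotic chromosomes, had 5 of 8 genes lower and 0 higher. Ncaph2 (0.814) and Ncapd3 (0.794, adjusted p = 2.2e-06) of condensin II fell most, and the shared subunit genes Smc2 and Smc4 had folds of 1.07 (adjusted p = 0.094) and 1.05 (0.15). Genes of G1/S and S phase went the other way, with 15 of 25 higher and 1 lower and a median fold of 1.13. Cdc6, which loads the replicative helicase, rose 1.53-fold and the histone chaperone gene Chaf1b 1.47-fold, and Cdc45 fell to 0.887. With upper-quartile centring the counts were 0 higher and 6 lower for condensin, and 12 higher and 5 lower for the G1/S list. Over all 12618 tested genes that centring gave 2819 higher and 4814 lower, against 3868 and 3240 as deposited. Without DMSO replicate 1, 2 condensin genes were called higher, and without DMSO replicate 2, 2 genes of the G1/S list were called lower.

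Beside the inner kinetochore members, the list of the KNL1-MIS12 network, the SKA and RZZ complexes and CENP-A loading had 4 of 20 higher and 5 lower, or 3 and 11 with upper-quartile centring. The background was 30.7% higher and 25.7% lower. With upper-quartile centring 2819 of all 12618 tested genes were higher and 4814 lower. Mis12, a subunit that joins inner and outer kinetochore, rose from 783 ± 21 to 1227 ± 27.6 normalised reads (SD, n = 3, fold 1.57, adjusted p = 3.6e-11), and Spdl1, a dynein adaptor, rose 1.36-fold. Hjurp, the chaperone that loads CENP-A, fell from 9443 ± 161 to 6821 ± 233 (SD, n = 3, fold 0.722, adjusted p = 1.4e-10), and Oip5, of the MIS18 loading complex, fell to 0.797. The exons of Mis12 overlap Derl2 and those of Oip5 overlap Nusap1 on the other strand. In the list of passenger, shugoshin, separase and cohesin genes 4 of 15 rose and 4 fell (3 and 6 with upper-quartile centring). There Cdca5, for sororin, rose 1.56-fold and Wapl, which releases cohesin, 1.16-fold, while the cohesin subunit genes Rad21 and Smc1a fell to 0.827 and 0.828.

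Among spindle and cytokinesis genes 7 of 23 rose and 5 fell (4 and 8 with upper-quartile centring), with Ckap2 at 1.33 and the kinesin gene Kif18b at 1.2 against Nusap1 at 0.776 and Anln at 0.872. Without STM2457 replicate 2, 3 genes of that list fell. For these lists too the background was 30.7% higher and 25.7% lower, and 2819 and 4814 of 12618 genes with upper-quartile centring. The APC/C list had 7 of 17 higher and 4 lower (4 and 7), with its inhibitor gene Fbxo5 at 1.28 and the subunit genes Anapc11 at 1.23, Anapc5 at 0.813 and Cdc16 at 0.894. In mitotic entry and exit control 5 of 13 rose and 1 fell (5 and 3). Gtse1 rose 1.52-fold, the phosphatase gene Cdc25a 1.44-fold, and Cdc25b fell to 0.899; without DMSO replicate 1 the falls numbered 2. In the list of the DREAM and MYBL2-MuvB complexes, regulators of cell cycle transcription, 4 of 12 rose and 5 fell (3 and 6). Mybl2 rose from 2321 ± 123 to 3265 ± 50.8 (SD, n = 3, fold 1.41, adjusted p = 3.4e-10) and Tfdp1 1.1-fold, while E2f5 fell to 0.731 and Rbbp4 to 0.862.

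**Figure D5:**
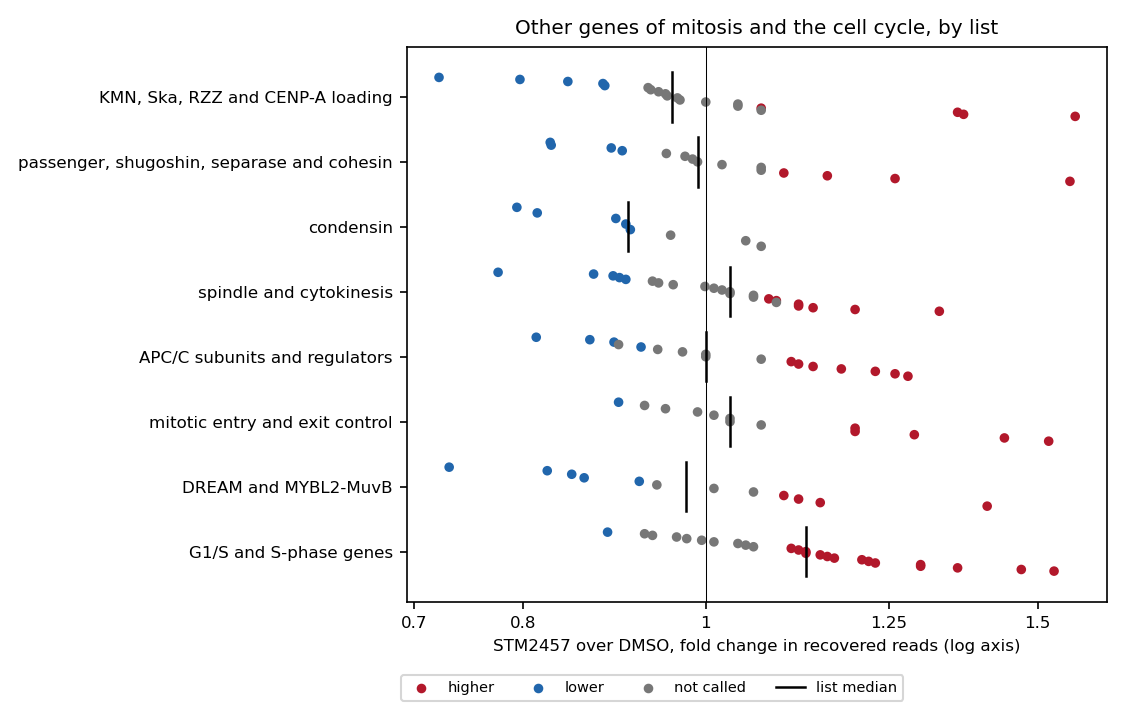
Fold change in recovered reads (horizontal log axis) of the other genes in each of 8 lists, 1 point a gene, coloured by the limma call, with a black line at the list median. Condensin has no red point, and the G1/S list has 1 blue point and a median of 1.13.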

How the data were processed

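RNA of LLC cells was sequenced in 3 DMSO and 3 STM2457 libraries. The authors used FastQC 0.11.9, HISAT2 2.2.1, featureCounts 2.0.1 of Subread, DESeq2 and the build GRCm38, per the submitters' processing notes. For annotation, settings, strand and transform the sources used here give nothing. The deposited table holds log2 values, 1 per gene and library, in which 31229 of 55367 genes are at 0 throughout. Their form is that of a regularised log transform, which shrinks differences, so a deposited log2 difference understates a change. Inverting that form gave reads within 0.05 of a whole number in 98.8% of values for 17555 genes with a mean under 500 reads, in 89.5% from 500 to 2000 and in 64.5% above. The settings of the inversion, size factors included, were chosen to make such reads whole, so these shares describe the fit and are no independent check. Members such as Plk1, Top2a, Mki67, Birc5 and Foxm1 lie above 2000 reads.

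The test was limma 3.58.1 (R 4.3.3, eBayes with trend and robust) on the deposited log2 values, STM2457 against DMSO, over 12618 genes with a mean of at least 10 reads, Benjamini-Hochberg adjusted over all of them. Folds and 95% intervals come from limma-voom on the recovered reads. The scripts were tested on simulated data. A count of 0 allows up to 3 reads, or 0.167 to 0.170 CPM; intervals and this limit cover counting error or library spread only. Reads per kilobase use the length of all exons of a gene together in GENCODE for GRCm38. The members and gene lists were chosen with earlier results of these data known. Values in every library are given for up to 4 members of each role, namely the highest per kilobase and the 3 others of smallest adjusted p, and of each other list the 2 called genes of smallest adjusted p in each direction are named. Smc2, Smc4 and Cenpc1 were named beyond that rule. Alternatives changed the scaling, filter, variance prior, replicate block, tested values and libraries used. Genes that overlap another on the opposite strand (12 members: Cenpk, Cenpo, Cenpp, Cenpq, Cenpt, Cenpu, Plk1, Ccna2, Cdc20, Kif20a, Kif4 and Ube2c) may share reads with it if strand was not used.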

Additional observations from a re-analysis of the deposited data

How the results depend on the processing

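Scaling moved the counts most. With upper-quartile centring 16 members were lower, 3 were higher by at least 0.32 on the log2 scale, 2 lower by as much, and the median fold reversed to 0.976; with median centring these were 16, 3, 1 and 0.981. At the adjusted p alone, 4814 and 4621 of all 12618 tested genes were lower with these centrings. For the rule with a minimum fold, the share of all tested genes in these settings or without a library is not given here. The centrings shift log2 folds in recovered reads by 0.070 and 0.062, and which scaling is nearer to RNA per cell was not tested. Leaving out each library in turn gave 6 to 10 members lower, 13 to 19 higher, 5 to 8 higher by at least 0.32, 0 to 1 lower by as much and median folds of 1.01 to 1.04. Limma-voom on recovered reads changed the call of 0 of the 50 members, as did a minimum mean of 50 reads. Same-numbered libraries had correlations of 0.050, 0.011 and 0.040 in their deviations from the group means. Those of differently numbered libraries ran from -0.056 to 0.022. Whether a number marks a shared culture or day was not tested. The replicate block gave 15 members higher and 10 lower, with 3864 for all tested genes called higher and 3226 for all tested genes called lower, and of the members changed the call of Bub1 only. In a promoter window starting 150 bases before the start, 53.5% of members held a homology region, against 9.48% of tested genes.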

Other observations

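The sequence GGACT, a common form of the m6A consensus, occurred at a median of 1.03 sites per kilobase in the longest coding transcript of the 50 members and at 1.04 in that of tested genes with such a transcript. The median was 1.05 in the 15 members that rose, 0.958 in the 9 that fell and 1.03 in the 26 not called. These are sequence counts, and m6A itself was not measured in these libraries.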
